A study of Mus musculus with 4 samples.

Results

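The sarcoplasmic reticulum is the calcium store of the heart muscle cell, and 10 genes that release, take up, hold and anchor its calcium were followed here in Nat10 knockout hearts: Ryr2, Trdn, Asph, Jph2, Atp2a2, Pln, Sln, Casq2, Casq1 and Hrc. They were picked by gene name, and each name stood on a single Ensembl gene in both deposited tables, giving 10 of 55382 genes. All 10 passed the filter on low values and were tested in every measure. The tested hearts came from conditional knockout mice (CKO in the series text, KO in the titles) and the reference hearts from mice called NAT10-FF or WT, with 2 libraries in each group. All mice were killed at day 15 after birth. NAT10 is an enzyme that acetylates cytidines in RNA. No source used here gives the promoter that drives the deletion, the deleted exons or whether each library is a separate animal. The p-values therefore cover the spread between libraries, which may be technical. The labels call the samples cardiomyocytes, while the protocol describes whole heart tissue.

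With each beat, calcium entering through L-type channels opens the ryanodine receptor Ryr2, the release channel of the reticulum. The pump SERCA2, made from Atp2a2, then returns calcium to the store, held back by the small membrane proteins phospholamban (Pln) and sarcolipin (Sln). Inside the store calsequestrin binds calcium, and triadin, junctin and the histidine-rich calcium-binding protein Hrc tie the store to the channel. Casq2 is the calsequestrin of cardiac muscle and Casq1 that of skeletal muscle.

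Each gene has 3 values per library. The footprint level is the ribosome-protected signal in FPKM (fragments scaled to gene length and to the number of mapped fragments). The translation efficiency (TE) is the authors' ratio of footprints to RNA. The implied RNA level is the footprint FPKM divided by the TE, which returns the RNA value that the authors divided by. Because TE is a quotient of the others, the measures are tied to each other by construction. Read depth is unknown, since FPKM keeps no read total. Footprints were found for 16425 to 16900 genes, depending on the library. Ventricular cardiomyocyte markers were abundant in every library. The 10 markers, among them Actc1, Myh6 and Myl2, summed to 180957 and 190970 FPKM of footprints in KO and 267776 and 313248 in WT. Footprints of Nat10 itself were 40.0 and 52.1 FPKM in KO and 77.3 and 73.9 in WT (log2 difference -0.71, SE 0.30, limma adjusted p = 0.295), so the labels match the direction of the gene but the difference did not pass the test. The tables carry a general offset: the median log2 difference over all tested genes was 0.36 for footprints, 0.22 for RNA and 0.15 for TE, and median-ratio scaling brought these medians to 0.03, 0.00 and 0.00. Differences below are on the deposited scale unless said otherwise.

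**Figure D1:**
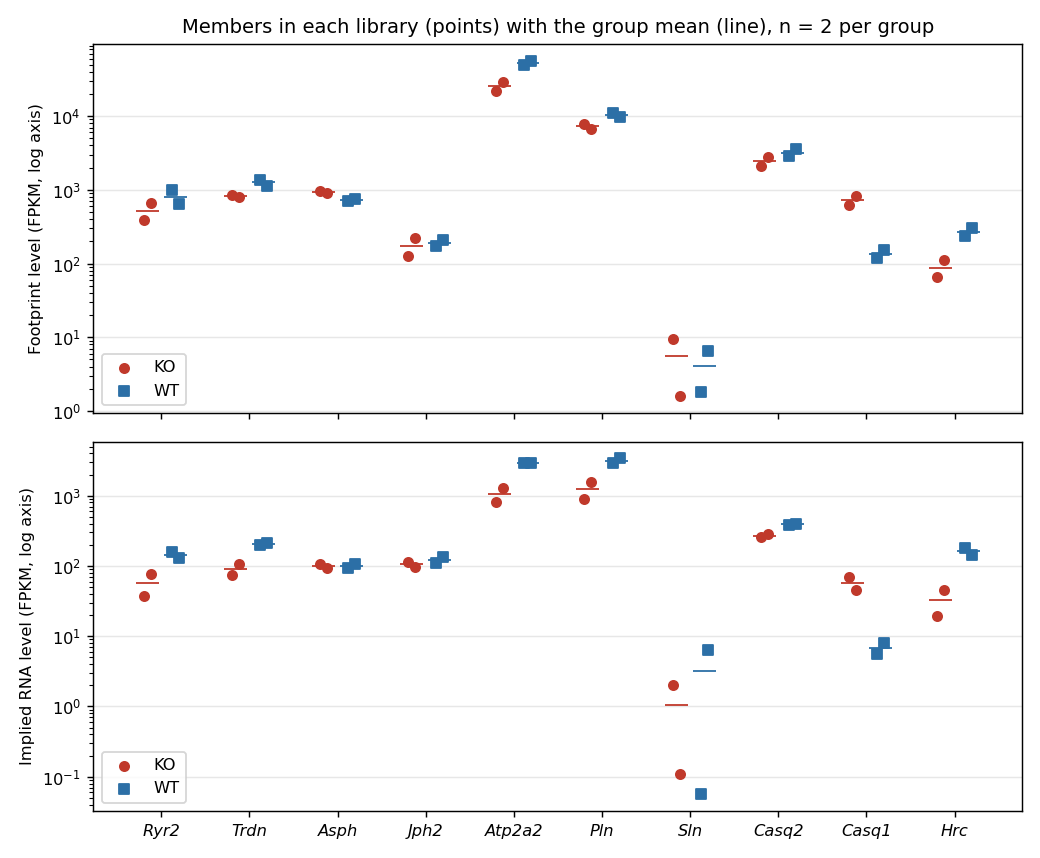
Footprint level (top) and implied RNA level (bottom) in FPKM on log axes for the 10 genes, with KO circles left of WT squares, 1 point per library and a line at the group mean (n = 2 each). Casq1 is the gene with KO points far above WT points in both panels, Hrc and Atp2a2 have KO points below WT points, and the points of Sln are spread within each group.

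Of the 10 genes, 1 rose in footprints (Casq1) and none fell. Over all 15031 genes tested, limma called 0.253% higher and 0.126% lower (0.379% in all) at an adjusted p under 0.05. At an unadjusted p under 0.05, 4 of the 10 passed, against 2599 of all tested genes. In implied RNA 1 rose (Casq1) and 2 fell (Hrc and Trdn), against 4.20% higher and 1.53% lower (5.73% in all) among 12529 genes. The split of calls over all genes was 38 higher and 19 lower in footprints and 526 and 192 in RNA, and with median-ratio scaling 40 and 30 in footprints and 327 and 309 in RNA, where 4 members fell (Hrc, Trdn, Atp2a2 and Pln). In TE none of the 10 passed the test, as none did among all genes (0%), so a lack of change was not shown. No member and 759 of all genes had an unadjusted p under 0.05 in TE. The median log2 difference of the 10 genes was -0.45 for footprints, -0.87 for RNA and 0.47 for TE, beside the medians of all genes given above. Below the median of all genes lay 8 members for footprints and 9 for RNA, and above it lay 7 for TE.

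Of the calsequestrins, Casq1 rose and Casq2 did not pass the test. Casq1 (ENSMUSG00000007122) lies on chromosome 1 at 172209894 to 172219895 of GRCm38. Its footprints were 627 and 812 FPKM in KO hearts, against 120 and 152 in WT hearts. The lowest KO library was thus well above the highest WT library. Casq1 footprints rose 5.26-fold (log2 difference 2.39, SE 0.26, limma adjusted p = 0.038). The implied RNA of Casq1 was 70.3 and 45.4 FPKM in KO and 5.59 and 8.11 in WT, and rose 8.39-fold (log2 3.07, SE 0.30, limma adjusted p = 0.014). Its TE was 8.92 and 17.9 in KO and 21.5 and 18.7 in WT, lower in both KO libraries without passing the test (log2 -0.67, SE 0.51, limma adjusted p = 0.871). Without each library in turn the Casq1 log2 difference was between 2.75 and 3.39 in RNA and between 2.21 and 2.58 in footprints. Such fits leave 1 library in a group, so calls from them are not read for single genes. The RNA call on Casq1 held without the mean-variance trend. The footprint call was lost with a pseudocount of 0.1 (adjusted p = 0.073), with no filter (0.143) and without the mean-variance trend (0.184).

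Casq2 (ENSMUSG00000027861, chromosome 3, 102086415 to 102146514) is the main calsequestrin of heart. It read 2104 and 2799 FPKM of footprints in KO and 2886 and 3524 in WT. The KO libraries lay below the WT libraries by a narrow margin (log2 -0.39, SE 0.25, limma adjusted p = 0.449). Its RNA was 257 and 282 FPKM in KO and 377 and 401 in WT (log2 -0.53, SE 0.22, limma adjusted p = 0.168), and its TE was 8.20 and 9.92 in KO and 7.66 and 8.79 in WT, with overlapping groups. Casq2 remained the more abundant isoform in every library.

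FPKM is scaled to gene length, so the isoforms are set side by side within a library here. The counted region is not stated, and untranslated parts of unlike length would shift the footprint share within a library, in the same way in all libraries. Casq1 made up 23.0% and 22.5% of summed calsequestrin footprints in KO hearts, against 3.99% and 4.13% in WT hearts. For RNA the Casq1 share was 21.5% and 13.9% in KO and 1.46% and 1.98% in WT. The footprint ratio of Casq1 to Casq2 was 6.95-fold higher in KO and the RNA ratio 12.1-fold higher. The footprint shares were nearly alike within each group and the groups were far apart. With 2 libraries against 2, the exact permutation test cannot go below p = 0.333, two-sided, which is the p for both ratios (0.667 adjusted over the 8 ratios computed).

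**Figure D2:**
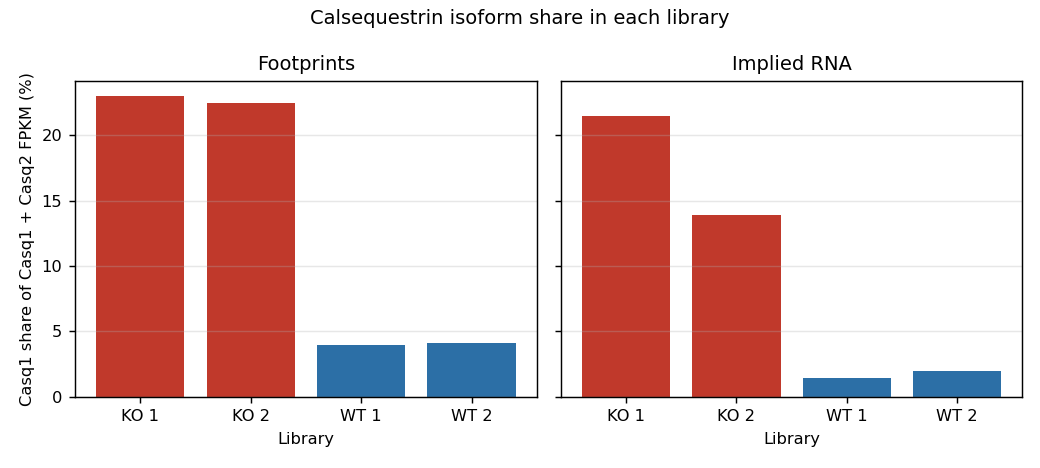
Share of Casq1 in the summed Casq1 and Casq2 FPKM, in percent, for footprints (left) and implied RNA (right), 1 bar per library with KO left of WT. The KO bars stand at 22.5% and 23.0% for footprints and at 13.9% and 21.5% for RNA, and all WT bars stay below 5%.

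Casq1 is a gene of skeletal muscle, so markers of that tissue are given beside it. Of 19 skeletal markers, Myod1 and Myog, which define the lineage, were listed at 0 in all 4 libraries, and 8 of the 19 (these included) were below 1 FPKM of footprints in every library, among them the fast myosins Myh1, Myh2 and Myh4. The summed footprints of the 19 were 598 and 1214 FPKM in KO and 385 and 528 in WT. Acta1, skeletal actin, which the young heart also makes, gave 313 and 1024 FPKM of this in KO and 142 and 389 in WT. Without Acta1 the sum was 285 and 190 FPKM in KO and 242 and 139 in WT. In RNA 2 of 7 tested markers rose, Acta1 (log2 2.37, limma adjusted p = 0.023) and Mybpc2, fast myosin-binding protein C (log2 2.09, limma adjusted p = 0.027). The other 5 tested markers had negative RNA differences that did not pass (median of all 7, -0.41). Among them, named after its values were seen, Tnni2, fast troponin I, had 0.550 and 0.0667 FPKM of RNA in KO and 2.18 and 1.69 in WT (log2 -3.33, limma adjusted p = 0.085), and its footprints were also lower in KO without overlap (log2 -2.04, limma adjusted p = 0.187). Mybpc2 footprints were higher in KO without overlap, at 82.5 and 47.2 FPKM against 19.1 and 25.3 in WT (log2 1.46, limma adjusted p = 0.204). Of 9 markers tested in footprints none passed. Without overlap 1 was higher and 2 were lower, against 39.5% and 12.1% of all genes. Both Acta1 and Mybpc2 lost their RNA call without the mean-variance trend (adjusted p = 0.053).

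The promoters of both calsequestrins and of Hrc, the gene with the largest fall, are shown because their RNA differences were unlike in size and direction. Each run is the 250 bases upstream of the RefSeq gene start in GRCm38.p6, 5′ to 3′ on the gene's strand, with E-boxes (CANNTG, the sites bound by muscle basic helix-loop-helix factors) in capitals.
Casq1, chr1:172219896-172220145, minus strand: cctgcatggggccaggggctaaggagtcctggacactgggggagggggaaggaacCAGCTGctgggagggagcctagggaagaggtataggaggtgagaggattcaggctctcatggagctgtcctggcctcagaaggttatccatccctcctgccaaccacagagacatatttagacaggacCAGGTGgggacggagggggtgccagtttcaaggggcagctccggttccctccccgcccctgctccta
Casq2, chr3:102086165-102086414, plus strand: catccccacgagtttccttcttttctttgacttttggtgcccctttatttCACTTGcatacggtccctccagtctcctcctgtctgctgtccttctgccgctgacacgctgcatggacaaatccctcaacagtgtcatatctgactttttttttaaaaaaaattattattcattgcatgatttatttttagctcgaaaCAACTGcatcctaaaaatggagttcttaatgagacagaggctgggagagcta
Hrc, chr7:45335019-45335268, plus strand: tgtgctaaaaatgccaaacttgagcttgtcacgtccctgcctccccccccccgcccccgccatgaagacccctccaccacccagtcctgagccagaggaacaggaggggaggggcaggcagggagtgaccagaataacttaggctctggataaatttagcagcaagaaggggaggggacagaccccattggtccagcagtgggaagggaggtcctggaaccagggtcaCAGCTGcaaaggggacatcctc

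Casq1 holds 2 E-boxes in this window, at 195 and 67 bases before the start, Casq2 holds 2, at 200 and 52, and Hrc holds 1, at 22. E-boxes are common: 66.2% of 32536 promoter windows of this length hold at least 1. The MEF2 motif of muscle genes occurs once, in Casq2 at 69 bases before the start, and is found in 2.89% of all windows. The TATA box (TATAAA) and the CArG box were not found in these 3 windows, and 12.3% and 1.48% of all windows hold them. All motifs were searched on both strands, and no match of one motif overlapped a match of another in these windows. The RefSeq table held a promoter for 6 of the 10 genes. These are matches of letters in a window and were not tested against the levels.

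Hrc (ENSMUSG00000038239, chromosome 7, 45335269 to 45338973), which binds calcium in the store and contacts both triadin and the pump, had the largest fall of the 10 in RNA. Its RNA was 19.5 and 45.6 FPKM in KO and 177 and 145 in WT, so both KO values were far below both WT values. Hrc RNA fell 5.38-fold (log2 -2.43, SE 0.40, limma adjusted p = 0.031). The size moved from -3.04 without KO replicate 2 to -1.81 without KO replicate 1, and the call was lost without the mean-variance trend (adjusted p = 0.0695). Hrc footprints were 65.0 and 110 FPKM in KO and 235 and 307 in WT, 3.15-fold lower without passing over all genes (log2 -1.66, SE 0.34, limma adjusted p = 0.149). They passed when small RNA genes and unnamed models were left out of the test (adjusted p = 0.042). The TE of Hrc was 3.34 and 2.41 in KO and 1.33 and 2.12 in WT (log2 0.76, SE 0.55, limma adjusted p = 0.868).

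Among the genes of the release complex, Trdn (ENSMUSG00000019787), triadin, which holds calsequestrin to the channel, fell in RNA. It had 73.4 and 106 FPKM of RNA in KO and 197 and 211 in WT. The WT values were close together and both KO values lay well below them. The RNA fall was 2.31-fold (log2 -1.21, SE 0.24, limma adjusted p = 0.045), and it did not pass without the mean-variance trend (0.088). Without each library in turn the log2 difference of Trdn RNA was between -1.47 and -0.95. Trdn footprints were 843 and 789 FPKM in KO and 1378 and 1141 in WT (log2 -0.62, SE 0.22, limma adjusted p = 0.248), and its TE was 11.5 and 7.46 in KO and 7.0 and 5.41 in WT.

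Ryr2 (ENSMUSG00000021313, chromosome 13), the release channel, had 37.2 and 75.9 FPKM of RNA in KO and 155 and 130 in WT. The groups did not overlap, with KO lower, and the difference missed the threshold (log2 -1.42, SE 0.35, limma adjusted p = 0.063). Without each library in turn the log2 difference of Ryr2 RNA was between -1.93 and -0.90. Ryr2 footprints were 390 and 654 FPKM in KO and 981 and 641 in WT. KO replicate 2 stood just above WT replicate 2, so the groups overlapped (log2 -0.65, SE 0.34, limma adjusted p = 0.376). The TE of Ryr2 was 10.5 and 8.61 in KO and 6.31 and 4.93 in WT (log2 0.77, SE 0.43, limma adjusted p = 0.834).

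The other junctional genes stood near level. Asph (ENSMUSG00000028207) codes for junctin and, by other splice forms, for junctate and the enzyme aspartyl β-hydroxylase, which a value per gene cannot separate. It read 978 and 914 FPKM of footprints in KO and 707 and 760 in WT. Its KO libraries were above its WT libraries (log2 0.37, SE 0.20, limma adjusted p = 0.390), a difference close to the shift of all genes, and with median-ratio scaling it was -0.01. Asph RNA was 105 and 92.6 FPKM in KO and 92.3 and 108 in WT, with overlapping groups. Jph2 (ENSMUSG00000017817), junctophilin, which bridges the reticulum and the T-tubule, had 126 and 224 FPKM of footprints in KO and 172 and 207 in WT. Its RNA was 115 and 95.3 FPKM in KO and 109 and 133 in WT. Jph2 overlapped between groups in all 3 measures (limma adjusted p 0.583 to 0.998).

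The pump gene Atp2a2 (ENSMUSG00000029467, chromosome 5) was the most translated of the 10 in every library. It ranked 8 and 7 among 13017 named tested genes by footprint level in KO, and 2 in both WT libraries. Atp2a2 footprints were 21783 and 28868 FPKM in KO and 50034 and 56269 in WT. The groups were far from overlapping, at 2.12-fold lower in KO, and the difference did not pass over all genes (log2 -1.08, SE 0.33, limma adjusted p = 0.223). Its RNA was 819 and 1303 FPKM in KO and 2919 and 2883 in WT, 2.81-fold lower at the edge of the threshold (log2 -1.49, SE 0.33, limma adjusted p = 0.051). It passed with median-ratio scaling (0.036), an RNA floor of 1 FPKM (0.042), a pseudocount of 1 (0.049) and without small RNA genes and unnamed models (0.045). It did not pass without the mean-variance trend. Without each library in turn the log2 difference of Atp2a2 RNA was between -1.82 and -1.15. The TE of Atp2a2 was 26.6 and 22.1 in KO and 17.1 and 19.5 in WT (log2 0.41, SE 0.46, limma adjusted p = 0.926).

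Pln (ENSMUSG00000038583, chromosome 10), the brake of the pump, came second in footprints in every library. Its footprints were 7850 and 6693 FPKM in KO and 10964 and 9738 in WT (log2 -0.51, SE 0.25, limma adjusted p = 0.346), and its RNA was 907 and 1568 FPKM in KO and 2875 and 3382 in WT (log2 -1.39, SE 0.36, limma adjusted p = 0.070). The RNA difference passed with median-ratio scaling (0.0498) and not without the mean-variance trend. Without each library in turn it was between -1.78 and -0.99. Pln had the largest TE difference of the 10, at 8.65 and 4.27 in KO and 3.81 and 2.88 in WT (log2 0.87, SE 0.53, limma adjusted p = 0.847). Pln was measured at 0.360 and 0.232 times the footprint level of Atp2a2 in KO, against 0.219 and 0.173 in WT, and at 1.11 and 1.20 times its RNA level in KO, against 0.985 and 1.17 in WT. The footprint ratio was 1.48-fold higher in KO with no overlap (exact permutation p = 0.333, the smallest possible, 0.667 adjusted), and the RNA ratio overlapped between groups.

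Sln (ENSMUSG00000042045, chromosome 9), sarcolipin, is a pump inhibitor of atrial and skeletal muscle. It had the lowest footprint level of the 10 in every library, at 9.48 and 1.58 FPKM in KO and 1.83 and 6.44 in WT. Its RNA was 2.00 and 0.11 FPKM in KO and 0.0565 and 6.33 in WT. KO replicate 1 and WT replicate 2 were high and the others low in both measures, so the spread lay within the groups (limma adjusted p = 0.931 for footprints and for RNA). The TE of Sln, 4.75 and 14.4 in KO and 32.4 and 1.02 in WT, divides values this low and is not read further. Without WT replicate 1 the log2 difference of Sln RNA was -3.76, while without WT replicate 2 it was 3.05.

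The atrial light chains Myl7 and Myl4 went with Sln library by library, while many other markers of the atrial list did not. Myl7 RNA was 44.1 and 0.251 FPKM in KO and 0.262 and 94.2 in WT, and Myl4 RNA was 46.3 and 2.65 in KO and 2.50 and 45.0 in WT. Myl7 footprints, at 312 and 47.6 FPKM in KO and 59.8 and 162 in WT, had the same libraries on top. Footprints of Myl4, Fgf12 and Bmp10 did too, while those of Nppa, Kcnj3, Kcnj5, Kcna5, Stard10 and Dkk3 did not. Kcnj3 footprints were 12.7 and 3.49 FPKM in KO and 70.2 and 28.0 in WT. Dkk3 footprints were 113 and 159 FPKM in KO and 18.4 and 37.0 in WT. The 10 atrial markers together summed to 23014 and 64249 FPKM of footprints in KO and 823 and 1654 in WT, most of it Nppa, which is also a stress gene of the ventricle. Without Nppa the sum was 1041 and 333 FPKM in KO and 258 and 430 in WT. Of the 10 markers Nppa rose in footprints, and in RNA Nppa rose and Kcnj3 fell (limma adjusted p = 0.041, 0.012 and 0.043). Kcnj3 RNA was 0.0358 and 0.615 FPKM in KO, both below 1 FPKM and far apart, and 12.3 and 8.48 in WT. Its log2 difference was between -8.155 and -4.05 when each library was left out in turn. The footprint call on Nppa was lost without the mean-variance trend (0.152), with a pseudocount of 0.1 (0.077) and with no filter (0.188). Without each library in turn its log2 difference was between 4.72 and 6.26. None of the 10 was at 0 in all libraries, while Bmp10 was listed at 0 in KO replicate 2. The part of atrial tissue in the Sln values was not tested.

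**Figure D3:**
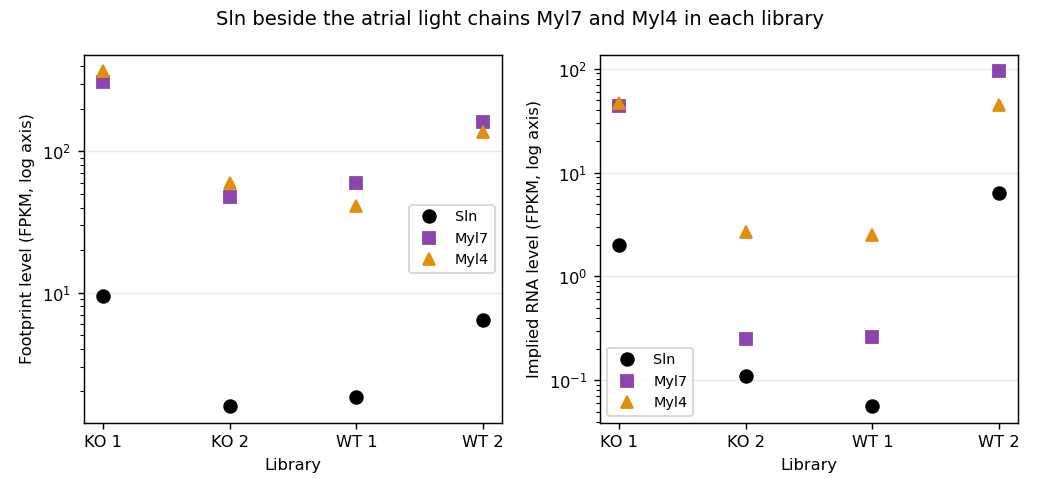
Sln beside the atrial light chains Myl7 and Myl4 in each library, as footprint level (left) and implied RNA level (right) in FPKM on log axes, KO left of WT. All 3 genes are high in KO replicate 1 and WT replicate 2 and low in the other two libraries, with Sln RNA at 2.00 and 6.33 FPKM in the high libraries.

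For every member except Asph the RNA difference was larger in size than the footprint difference. Because TE is footprints over RNA, the signs of the TE differences follow from these differences and add no separate evidence. For all 6 genes whose RNA was lower in both KO libraries (Ryr2, Trdn, Atp2a2, Pln, Casq2 and Hrc) the footprint difference was the smaller one, and Casq1 had a smaller rise in footprints than in RNA. Asph went the other way, with 0.37 in footprints and -0.02 in RNA, and Jph2 (-0.17 and -0.20) and Sln overlapped between groups in both. In TE terms, 6 members were higher in both KO libraries (Ryr2, Trdn, Asph, Atp2a2, Pln and Hrc) and 1 was lower (Casq1), against 24.0% of all genes higher and 12.0% lower without overlap (35.9% in all). In footprints 2 members were higher and 5 lower without overlap, against 39.5% and 12.1% of all genes (51.7% in all). In RNA 1 was higher and 6 lower, against 44.2% and 18.6% (62.8% in all). None of the TE differences passed limma's test (adjusted p 0.834 to 0.998), so a footprint change that differs from the RNA change was not shown for any of the 10. With median-ratio scaling 7 of the 10 TE differences were positive in place of 9, and those of Casq2 and Jph2 were -0.01 and -0.11.

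**Figure D4:**
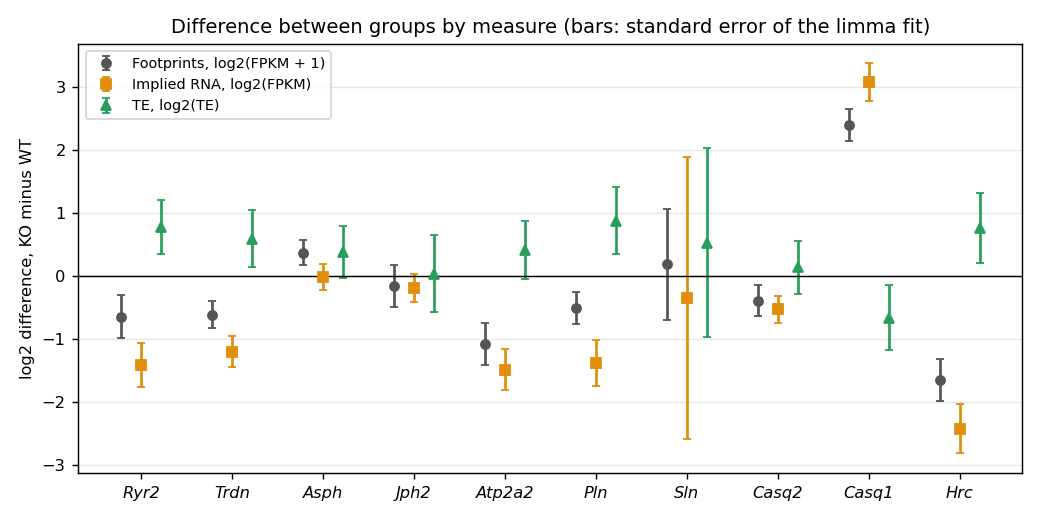
Log2 difference, KO minus WT, for footprints, implied RNA and TE of the 10 genes, with bars for the standard error of the limma fit. The RNA difference of Hrc (-2.43) is the lowest and that of Casq1 (3.07) the highest. The TE differences lie on the other side of 0 from the RNA differences for all 10 genes.

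In whole hearts, fewer cardiomyocytes and less RNA per cardiomyocyte cannot be told apart. The 10 ventricular cardiomyocyte markers had a median log2 difference of -0.40 in footprints and -0.26 in RNA, with 9 and 7 of 10 negative. None of them passed the test in either measure. The exception in footprints was Myh7, at 36.4 and 559 FPKM in KO and 9.78 and 6.31 in WT (log2 4.03, limma adjusted p = 0.218). For the 10 calcium genes the medians were -0.45 and -0.87. Of 10 fibroblast markers, 10 had a positive footprint difference (median log2 1.31). Their summed footprints were 50938 and 63225 FPKM in KO and 24765 and 20962 in WT. In RNA 7 were positive and 3 negative (median 0.51), with Tcf21 RNA the only call among them. Summed fibroblast RNA was closer between the groups, at 2521 and 1743 FPKM in KO and 1135 and 1518 in WT. Of all tested genes, 10693 of 15031 had a positive footprint difference and 8090 of 12529 a positive RNA difference. All 8 macrophage markers were positive in both measures (median 0.76 in footprints and 1.04 in RNA), and C1qa and Lyz2 rose in RNA. The 8 endothelial markers were all positive in footprints (median 0.58), while in RNA 4 were positive and the median was -0.0049. Smooth muscle markers were split, with 6 of 8 positive in footprints (median 0.33) and 5 of 8 in RNA (median 0.51), where Tagln rose and Smtn fell. Of the erythroid markers, 6 of 7 were negative in footprints (median -0.28), and 6 of 6 were positive in RNA (median 0.54). No fibroblast, macrophage, endothelial or erythroid marker passed in footprints, and of the smooth muscle markers Tagln did. The part of these cell types in the differences of the calcium genes was not tested.

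A wider list of 56 other genes that act on reticulum calcium was set beside the 10. Of 47 tested for footprints none passed limma's adjusted threshold, against 0.379% of all genes. Before adjustment 9 were under 0.05, against 2599 of 15031 among all genes. The median log2 difference of the list was 0.16, below the 0.36 of all genes. Of 43 tested for RNA, 1 fell, Cacna1c, and none rose, against 1.53% lower and 4.20% higher among all genes. At an unadjusted p under 0.05 there were 20, against 3544 of 12529 among all genes (median of the list -0.04). Of 43 tested for TE none passed, as none did among all genes (0%). At an unadjusted p under 0.05 there were 4, against 759 of 12529 (median of the list 0.08).

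Cacna1c, the pore of the L-type channel that triggers release, had 16.03 and 25.3 FPKM of RNA in KO and 61.2 and 61.4 in WT. The WT values were nearly equal and both KO values were far below them. Cacna1c RNA fell 3.05-fold (log2 -1.61, SE 0.26, limma adjusted p = 0.031). The call was lost without the mean-variance trend (adjusted p = 0.0695). Without each library in turn the log2 difference of Cacna1c RNA was between -1.94 and -1.28. Cacna1c footprints were 83.8 and 126 FPKM in KO and 229 and 142 in WT (log2 -0.81, limma adjusted p = 0.309).

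Among genes of uptake, Strit1, the micropeptide DWORF that activates the pump in mouse heart, had the largest footprint difference of the wider list. It read 13.4 and 5.67 FPKM in KO and 78.5 and 55.9 in WT, which is 6.87-fold lower without passing over all genes (log2 -2.78, SE 0.50, limma adjusted p = 0.124). It passed without small RNA genes and unnamed models (0.031). Its TE was missing in KO replicate 2, so RNA and TE were not tested. The skeletal pump Atp2a1 and the skeletal micropeptide Mrln were listed at 0 in both KO libraries and were below 1 FPKM in WT.

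Among release genes, Calm2, a calmodulin gene, read 262 and 307 FPKM of footprints in KO and 147 and 139 in WT (log2 0.98, SE 0.23, limma adjusted p = 0.166), and reads of calmodulin genes may be shared with pseudogenes. Fkbp1a, the immunophilin that binds ryanodine receptors, had the highest RNA difference of the wider list (258 and 170 FPKM in KO, 114 and 117 in WT, log2 0.86, limma adjusted p = 0.096). S100a1, a calcium sensor of the receptor and the pump, followed at 0.75 after Sdf4, a calcium-binding protein of the secretory pathway, at 0.81. Itpr1, an inositol trisphosphate receptor, had the highest TE difference (log2 1.75, limma adjusted p = 0.777). The skeletal ryanodine receptor Ryr1 was below 1 FPKM in all libraries.

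Stim1, the sensor of store filling, was 80.7 and 97.9 FPKM in footprints in KO and 37.5 and 44.1 in WT. Its groups were well apart (log2 1.11, SE 0.30, limma adjusted p = 0.189), and its RNA was 6.86 and 7.80 FPKM in KO and 10.1 and 8.87 in WT, so that its TE differed by 1.496 on the log2 scale (limma adjusted p = 0.777). Among kinases and phosphodiesterases, Camk2a had the lowest RNA difference of the list (log2 -1.74, limma adjusted p = 0.073) and Pde4d was at -1.15 (0.101), while Pde3a had a TE difference of 1.299. Speg, a kinase of the junction, was at -0.91 in footprints (limma adjusted p = 0.312). Ppp1cc, a catalytic subunit of protein phosphatase 1, had the highest footprint difference of the wider list, 1.13. Its levels were 2.09 and 1.71 FPKM in KO and 0 and 0.751 in WT. It reached the 1 FPKM of the filter only in KO, where it was high, so this difference is not read further. Jph1, Prkar2a and Fkbp1a had the lowest TE differences, at -0.72, -0.60 and -0.60.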

How the data were processed

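The members and gene lists were chosen with earlier results of these data known. Hearts (about 100 mg) were frozen, ribosomes held with cycloheximide at 100 µg/mL and footprints made with RNase I, per the labels' protocols. The authors deposited footprint levels in FPKM and the TE as a ratio, 1 value per gene and library. The submitters' processing notes name Cufflinks 2.2.1, HTSeq 0.13.5, STAR 2.7.4a, Bowtie 1.3.1, FastQC 0.11.9 and cutadapt 3.7, with GRCm38 (mm10). Their roles, the strand setting, the counted region and the making of the RNA libraries are not stated there. A footprint level per whole gene would read low for genes with long untranslated parts.

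Dividing FPKM by TE returned a number of 6 significant digits or fewer for all 59296 quotients (within a relative 1e-10). A TE of 0 was taken as missing. A gene was tested when 2 or more of the 4 libraries reached 1 FPKM, on log2(FPKM + 1), which understates changes of low genes. TE and implied RNA were tested as log2 where the TE was above 0 in all libraries. All tests used limma 3.58.1 (R 4.3.3, with lmFit, then eBayes with its trend over mean level), two-sided, with Benjamini-Hochberg adjustment over all genes tested. A run on simulated data, with spreads shuffled across genes, was required only to return the median size of planted differences. It does not bear on the calls, since the shuffle removes the link of spread to mean level. Ratios of member genes were compared by the exact permutation test (scipy 1.17.1). Named were the members, Nat10, called genes of the wider list and its 3 largest differences each way per measure. Coordinates and promoters are from RefSeq (GRCm38.p6).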

Additional observations from a re-analysis of the deposited data

How the results depend on the processing

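All libraries together called 38 genes higher and 19 lower in footprints, 0 and 0 in TE, and 526 and 192 in RNA. Leaving out single libraries gave 0 to 0 calls each way for footprints, for all genes and for members. For TE it gave 0 to 23 higher and 0 to 10 lower, and for RNA 482 to 2632 higher, 222 to 1110 lower and 2 to 6 members lower, with 1 member higher each time. Footprint calls were 170 higher and 50 lower, with 1 member lower, without small RNA genes and unnamed models, 23 higher and no member higher without the trend (0), 23 and 11 with a pseudocount of 0.1 and 7 and 1 with no filter (0 members higher in both), and 30 lower with median-ratio scaling. TE gave 1 gene lower without small RNA genes, without the trend and with an RNA floor of 1 FPKM. RNA calls were 50 and 17 without the trend (0 members lower) and 327 and 309 with median-ratio scaling (4 members lower).

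Nothing in the labels ties equal replicate numbers to one animal or day. With the replicate block, footprints gave 118 higher calls, TE 126 and 52, and RNA 1028 and 401. Under the block Ryr2 RNA (adjusted p = 0.0154) and Strit1 footprints (0.0438) also passed. Same-numbered libraries deviated with r = -0.06 for footprints, -0.22 for RNA and -0.02 for TE across genes. A crossed pairing, added after seeing the data, gave 2412 and 829 RNA calls with 5 members lower.

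Of the members' log2 differences, 5 of 120 reversed in footprints, 4 of 109 in RNA and 6 of 99 in TE. Median-ratio scaling turned Sln and Asph footprints (-0.090 and -0.0082) and Casq2 and Jph2 TE (-0.0091 and -0.11). Without single libraries the range was -0.83 to 1.19 for Sln and -0.58 to 0.25 for Jph2 footprints, -1.97 to 3.02 for Sln, -0.0007 to 0.27 for Casq2 and -0.52 to 0.58 for Jph2 TE, and -3.76 to 3.05 for Sln and -0.13 to 0.10 for Asph RNA. The log2 ratio differences ran from -0.50 to 1.86 for Sln over Pln and -0.24 to 2.75 for Sln over Atp2a2 in footprints, and in RNA from -2.25 to 4.32, -2.28 to 4.55 and, for Pln over Atp2a2, -0.023 to 0.23. Casq1 over Casq2 stayed within 2.77 to 2.82 in footprints and 3.22 to 3.98 in RNA. The causes were not tested.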
